A study of Mus musculus with 44 samples.

Results

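The genes described here encode proteins of the cytosolic ribosome. They are the protein-coding genes present in both count tables whose names are Rpl or Rps with a number (or Rplp with a number), optionally followed by a, x or l, and whose level averaged at least 50 counts per 1000000 (CPM) over the 16 libraries of L929 cells. Of 54532 genes, 79 had such a name and 71 of these reached the minimum, 42 for the large (60S) subunit and 29 for the small (40S) subunit. The mean L929 level chose the genes, so their levels there are given as a description, with no test. The genes just inside the minimum were Rps18 at 58.3 CPM, Rps27l at 76.9 CPM, Rps2 at 102 CPM and Rpl39l at 107 CPM. Those outside it were Rpl13a at 39.6 CPM, Rpl26 at 21.5 CPM, Rpl21 at 7.30 CPM, Rps10 at 5.75 CPM, Rpl29 at 2.08 CPM, Rpl24 at 1.09 CPM, Rpl3l at 0.259 CPM and Rpl10l at 0 CPM.

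Ribosomal proteins pack around ribosomal RNA to form the subunits, which are built in the nucleolus in equal numbers and exported to the cytoplasm. Cells hold these messages in large amounts. In mammals most of them begin with a terminal oligopyrimidine (TOP) stretch, a C followed by a run of pyrimidines, through which the kinase complex mTORC1 and the RNA-binding protein Larp1 set how much they are translated. Nearly every ribosomal protein gene also has processed pseudogenes, intronless copies of its message elsewhere in the genome.

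The study holds 44 libraries of polyadenylated mouse RNA, 4 for each of 11 groups. L929 cells are a line of connective tissue fibroblasts, and FRMD5 is a protein with a FERM domain. The 16 L929 libraries came from cells labelled full-length (isoform 2), delta-IDR combined domain (isoform 2; delta-IDR here), delta-coiled-coil and -LCDs (isoform 2; delta-CC-LCD here) and control. The design text places dexamethasone (DEX), a synthetic glucocorticoid, on L929 cells for 4 h. The labels do not say which L929 groups received it, nor what the control cells carried. A treatment time of 4 h is recorded for the full-length, delta-IDR and delta-CC-LCD libraries, and none for the control libraries. Comparisons against L929 control cells therefore cannot tell the construct from this recorded difference. The 28 neuron libraries came from primary cultures of mouse cortex and formed 7 groups, which were control peptide at 100 µM with DEX, interfering peptide at 1, 3, 10, 30 or 100 µM with DEX, and control peptide at 100 µM without DEX. Peptide and DEX were applied for 4 h, and below 100 µM an interfering peptide group therefore differs from its control in the amount of peptide as well as its kind. Whether a group's libraries stem from separate cultures is not in the labels, so p-values cover only the spread among the libraries at hand, and that spread may be technical. How many cell lines or clones stand behind an L929 group, and the promoter of the constructs, are likewise not in the labels.

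Library totals were 17211270 to 18313407 counts in L929 and 13685236 to 17083701 counts in neurons. Summed neuron markers (10 genes, among them Map2, Tubb3 and Snap25) lay between 3221 and 3837 CPM in the neuron libraries and between 0.104 and 1.73 CPM in L929. Of 10 fibroblast markers, 8 were above 0.5 CPM in L929 groups, with summed levels of 10390 to 13476 CPM. Astrocyte markers summed to 386 to 469 CPM in the neuron libraries, 7 of 8 above 0.5 CPM, and proliferation markers to 1264 to 1533 CPM with all 8 above 0.5 CPM. The astrocyte list also summed to 411 to 439 CPM in L929 control libraries and to 203 to 391 CPM in the construct libraries. Its sum alone therefore does not tell astrocytes from fibroblasts. The endogenous Frmd5 row had 9, 20 and 5 counts over the full-length, delta-IDR and delta-CC-LCD groups and 15 over the control group, and does not check the constructs. Sgk1 and Fkbp5, genes induced by glucocorticoids, differed widely between L929 groups. Sgk1 averaged 1073, 908 and 909 CPM in the full-length, delta-IDR and delta-CC-LCD groups and 29.6 CPM in the control group, and Fkbp5 1106, 906 and 1317 CPM in those groups and 211 CPM in the control group. In 10 of the 11 groups, delta-CC-LCD apart, libraries 1 and 3 resembled each other and libraries 2 and 4 resembled each other more than other pairs did. Counts are also given within these pairs where they moved by over 1.5 times. The pairs were picked for this resemblance, so the spread within a pair can be too small and too many genes can pass. Calls over all genes are therefore given beside those counts.

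The copies are shown first, since reads of a gene and of a near-identical copy can be counted in either row. Searching the coding transcripts of GENCODE M21 for every stretch of 75 bases, 68 of the 71 genes shared at least 1 stretch with another annotated gene, and 538 other genes were hit, of which 516 are pseudogenes. Rpl7a had the most such copies, 61. The following pairs show how close a gene and its most counted copy can be: each is 60 bases of the coding sequence of the gene and the same bases of the copy, with bases that differ in capitals.
Rpl26: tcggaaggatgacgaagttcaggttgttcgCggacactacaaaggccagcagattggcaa
Gm15772: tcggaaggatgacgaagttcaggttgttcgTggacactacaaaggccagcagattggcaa
Rpl3: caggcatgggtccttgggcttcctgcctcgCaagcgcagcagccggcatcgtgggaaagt
Rpl3-ps1: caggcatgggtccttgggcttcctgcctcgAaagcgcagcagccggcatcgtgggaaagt
Rpl34: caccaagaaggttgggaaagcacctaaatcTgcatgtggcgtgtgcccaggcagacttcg
Rpl34-ps1: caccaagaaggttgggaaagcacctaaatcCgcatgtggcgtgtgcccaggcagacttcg
Rps27: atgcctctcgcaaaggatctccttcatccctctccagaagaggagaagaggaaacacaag
Rps27rt: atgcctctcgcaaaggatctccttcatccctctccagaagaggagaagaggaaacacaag
Rpl26 on chromosome 11 and Gm15772 on chromosome 5 differed at 2 of 438 coding bases. Rpl3 on chromosome 15 and Rpl3-ps1 on chromosome X differed at 2 of 1209 aligned bases, and Rpl34 on chromosome 3 and Rpl34-ps1 on chromosome 6 at 2 of 354. Over the 255 coding bases of Rps27 on chromosome 3, Rps27rt on chromosome 9 had 0 differences. A read from such a stretch fits both places, or favours one by a single base.

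The deposited counts were spread over genes and copies, as the plot of own rows against copies shows. The median gene held 95.4% of the summed counts of itself and its copies in its own row in either table, while 24 genes in L929 and 25 in neurons held under 90%. Rps2, a 40S protein at the entry of the message channel, held 5.95% in L929 and 56.1% in neurons, and its row alone was higher in neurons although the sum with copies was 465 CPM in control peptide neurons without DEX and 1697 CPM in L929 control cells. Rpl34 held 54.5% in L929 and 4.85% in neurons, where its own row had 4.51 to 10.0 CPM. Of the genes outside the minimum, Rpl26 had 21.5 CPM in its own row in L929 and 592 CPM in copies, Rps10 had 5.75 and 200 CPM, Rpl29 had 2.08 and 151 CPM, and Rpl21 had 7.30 and 100 CPM. With copies each of these 4 was above 50 CPM, and each comparison below was also computed on sums with copies.

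**Figure D1:**
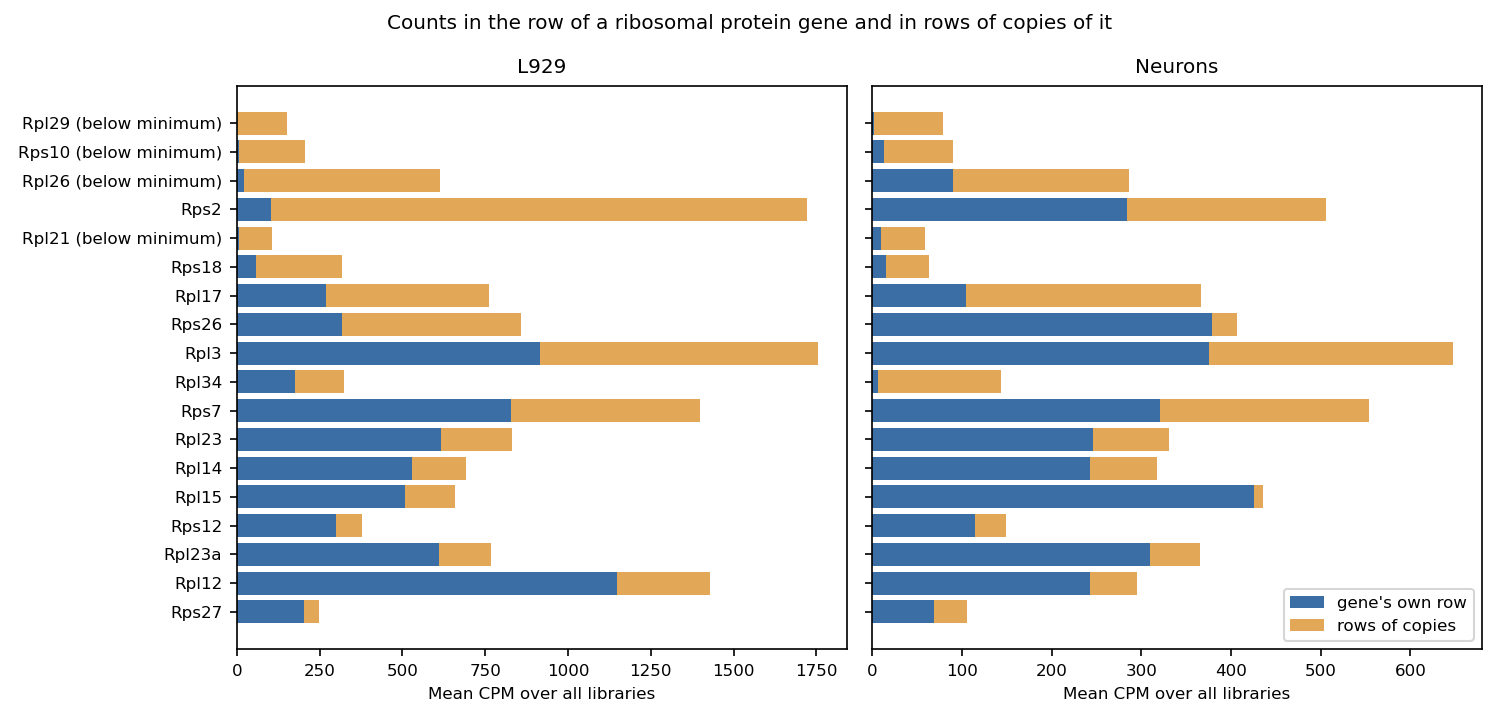
Mean CPM over all libraries of a table, in the gene's own row (blue) and in rows of its copies (orange), for the genes with the smallest own share in L929; left L929, right neurons, horizontal axes in CPM. Rps2 had 102 CPM in its own row and 1619 CPM in copies in L929, and 284 and 222 CPM in neurons.

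Rpl17, a 60S protein beside the exit tunnel, shows the effect library by library. Its own row had 537, 340, 250.5 and 304 CPM in full-length libraries, 264, 283, 149 and 175 CPM in delta-IDR libraries, 356, 172, 172 and 443 CPM in delta-CC-LCD libraries, and 279, 190.0, 262 and 169 CPM in control libraries. The own rows overlapped between all 4 groups. With its copies Rpl17 had 886, 892, 831 and 861 CPM in full-length libraries, 646, 738, 638 and 749 CPM in delta-IDR libraries, 754, 744, 707 and 749 CPM in delta-CC-LCD libraries, and 772, 694, 806 and 705 CPM in control libraries. All full-length libraries then stood above those of the other groups. The spread within groups (SD on the log2 scale) was 0.51 for the own row and 0.09 for the sum in L929, and 0.56 and 0.06 in neurons. Across 28 neuron libraries the deviations of Rpl17 and of its pseudogene Rpl17-ps10 from their group means had a Pearson correlation of -0.93, and across 16 L929 libraries -0.79, given as a description since both rows share a library's reads. Rps27a, whose protein is made as a fusion with ubiquitin, stayed variable: its own row ran from 115 to 537 CPM in L929, and its SD was 0.78 for the own row and 0.63 for the sum.

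**Figure D2:**
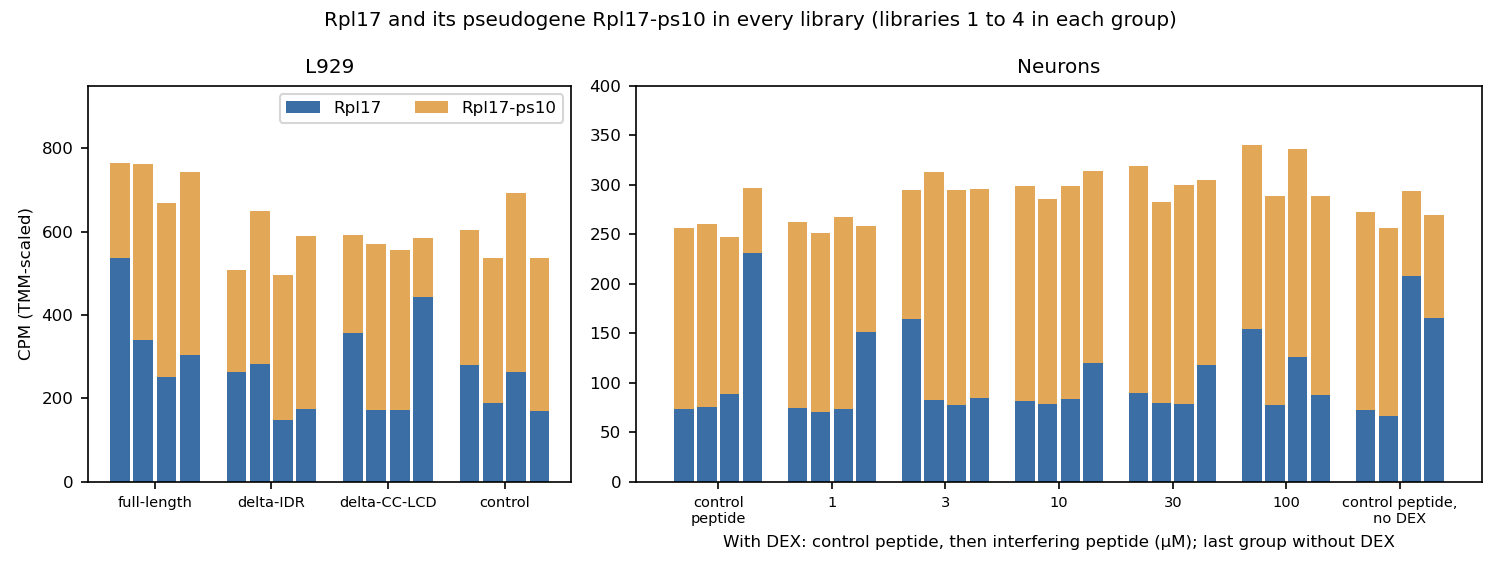
Rpl17 (blue) and its pseudogene Rpl17-ps10 (orange) stacked for libraries 1 to 4 of each group, vertical axis in TMM-scaled CPM; left L929, right neurons. The blue part ran from 66.3 to 231 CPM in neurons while the stacked height ran from 247 to 340 CPM.

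The start of the message was looked at because the TOP stretch sits there. RefSeq start sites of build GRCm38.p6 were found for 53 of the 71 genes (64 starts). A C at the first annotated base followed by pyrimidines (C or T), with a run of at least 5 bases in all, was found on the gene's strand at 12 of these starts, 18.75%, and at 823 of all 32851 starts in the table, 2.51%. A run of at least 5 beginning within 5 bases of the annotated start was found at 43.75% and 18.35% of starts. The following 30-base windows run from 10 bases before the annotated start, and capitals mark the run that begins at it. The last 2 hold no run at that base, although in Rps27l a run of 5 begins within 5 bases of it.
Rps6 (chr4:86857348-86857377, minus strand): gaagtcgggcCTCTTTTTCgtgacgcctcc
Rpl28 (chr7:4792955-4792984, plus strand): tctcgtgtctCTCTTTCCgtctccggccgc
Rpl15 (chr14:18270967-18270996, minus strand): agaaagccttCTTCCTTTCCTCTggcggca
Rpl22 (chr4:152325716-152325745, plus strand): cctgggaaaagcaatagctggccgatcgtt
Rps27l (chr9:66946076-66946105, plus strand): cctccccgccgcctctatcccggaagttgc
The windows were chosen after the values of these genes were seen, to show starts with and without a run at the annotated base. In delta-IDR against full-length L929 cells, described below, 6 of the 12 genes with a run at an annotated start fell, with a median log2 change of -0.21, and so did 21 of the 41 without one, with a median of -0.21. Of all genes tested 13.6% fell in that comparison. Rps4x, Rplp0, Rpl5 and Rpl10 had no run and fell there, and Rps27, with a run, did not pass. A run beginning within 5 bases of a start was found in 26 of the 53 genes. The 41 genes without a run at the annotated base therefore include some with a run close by. The part of the TOP stretch in these changes was not tested.

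The 71 genes took between 3.91% and 4.93% of all counts in L929 libraries and between 1.81% and 2.21% in neuron libraries. By group the share was 4.65% ± 0.206 for full-length, 4.18% ± 0.327 for delta-IDR and 4.43% ± 0.140 for delta-CC-LCD libraries, against 4.69% ± 0.166 for control libraries (SD, n = 4 each). Within delta-IDR, libraries 1 and 3 had 3.91% each, and libraries 2 and 4 had 4.34% and 4.56%. In neurons the share was 1.99% ± 0.0917 with control peptide and DEX and 1.92% ± 0.0413 with control peptide alone. Over the doses of interfering peptide with DEX it was 1.89% ± 0.0586 at 1 µM, 2.11% ± 0.0869 at 3 µM, 2.08% ± 0.0776 at 10 µM, 2.12% ± 0.0353 at 30 µM and 2.01% ± 0.0927 at 100 µM. These are shares of the library, with no adjustment for its composition. In bulk RNA, fewer cells of a type and less RNA per cell cannot be told apart.

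**Figure D3:**
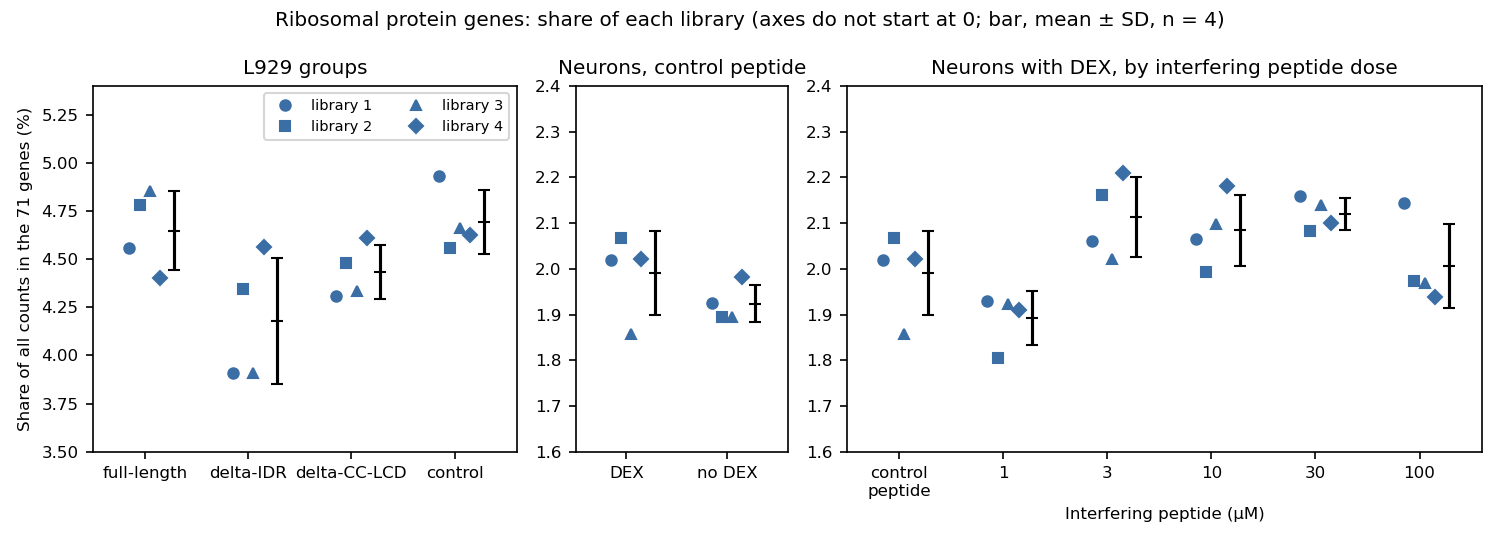
Share of all counts in the 71 genes (percent, axes not starting at 0) by library (symbols) with the group mean ± SD (bars, n = 4); left L929, centre control peptide neurons, right neurons with DEX by dose. Delta-IDR libraries 1 and 3 stood at 3.91%, below every other L929 library.

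Per kilobase of annotated exon (RPKM), the level of the genes ranged from 23.1 to 1766 in L929 control cells, with a median of 290.5, and from 0.04 to 531 in control peptide neurons without DEX, with a median of 134. The stalk proteins Rplp0 and Rplp1, which recruit the translation factors that hydrolyse GTP, had 1766 ± 37.4 and 1251 ± 57.8 RPKM in L929 control cells (SD, n = 4), and 507 ± 9.82 and 437 ± 26.9 RPKM in those neurons. Rps15, near the decoding site, had 1489 ± 76.0 RPKM in L929 control cells, and Rpl41, the shortest of the proteins, 1120 ± 87.3 RPKM. In neurons Rps15 was the highest at 531 ± 28.3 RPKM, and Rpl4 and Rps14 followed Rplp1 with 424.5 ± 15.1 and 350 ± 36.4 RPKM. The lowest in L929 were Rps18 at 23.1 ± 1.13, Rpl22 at 41.0 ± 2.09, Rps2 at 52.2 ± 3.06, Rpl34 at 65.2 ± 8.79 and Rps15a at 80.9 ± 3.89 RPKM. The lowest in neurons were Rpl39l at 0.04 ± 0.05, Rpl34 at 2.11 ± 0.33, Rps18 at 5.61 ± 1.09, Rpl35a at 7.41 ± 0.36 and Rps19 at 28.4 ± 3.62 RPKM. The lengths deposited with the counts include every annotated exon, 6270 bases for Rps15a and 4685 for Rps19, which lowers a gene with long unused exons, and Rps18, Rps2 and Rpl34 were among the genes counted in copies.

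Between the cell types, 68 of the 71 genes had a lower CPM in control peptide neurons without DEX than in L929 control cells, with a median ratio of 0.424 (0.422 on sums with copies, 70 of 71 lower). The tables were processed apart and the genes were chosen on L929 levels, so this is a description. Rpl22, an RNA-binding 60S protein, was the exception that remained on sums, at 221 CPM in neurons and 119 CPM in L929, a ratio of 1.85. At the other end Rpl39l, the paralog of Rpl39, had 97.7 CPM in L929 control cells and 12 counts in all over the 28 neuron libraries, and was the 1 gene that could not be tested in neurons.

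Full-length FRMD5 cells were compared with control cells, in which most genes of the whole table moved. Of the 71 genes, 29 rose and 0 fell, with a median log2 change of 0.15 with TMM scaling and -0.02 with total counts; of all 14118 genes tested, 30.3% rose and 28.7% fell (edgeR's quasi-likelihood test, Benjamini-Hochberg adjusted p below 0.05, as in all comparisons here), with a median of -0.01. By subunit, 19 of 42 60S genes and 10 of 29 40S genes rose. Rpl23a, at the exit tunnel, had 654, 685, 696 and 658 CPM in full-length libraries, against 582, 524, 609 and 542 CPM in control libraries. Every full-length library was above every control library, and the log2 change was 0.26 ± 0.05 (SE; adjusted p = 4.5e-05). Rpl28 averaged 565 ± 19.3 CPM in full-length and 477 ± 30.5 CPM in control libraries, and Rpl10a, of the L1 stalk, 652 ± 15.9 and 552 ± 21.9 CPM. Their log2 changes were 0.24 each, and neither overlapped. Rplp0 (0.16), Rps6 (0.18), which S6 kinase phosphorylates downstream of mTORC1, Rpl5 (0.15), a carrier of ribosomal RNA that can bind Mdm2, and Rps4x (0.10) also rose. Rps26, near the exit of the message channel, rose by 0.20 with overlapping groups (adjusted p = 0.017) and did not pass on the sum with its copies (0.23, adjusted p = 0.0665). Rpl3, Rpl11, Rplp1, Rplp2, Rps19, Rps27, Rps27a and Rps27l did not pass, with log2 changes from 0.05 to 0.65.

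The rise turned with the scaling. With total counts as library sizes 0 genes rose and 2 fell, none of the 29 kept its call, and 13 of the 29 changed sign, among them Rplp0, Rpl5 and Rps4x. The median of all genes was then -0.17 and that of the 71 genes -0.02, and their share of the library, given above, was 4.65% in full-length and 4.69% in control libraries. Sgk1 and Fkbp5, given above, moved with this comparison, and the part of DEX in it was not tested. The number that rose was 18 without the libraries numbered 2 and at most 36 without another number.

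Delta-IDR cells had lower levels of these genes than full-length cells. Of the 71 genes, 35 fell and 0 rose, with a median log2 change of -0.21, against 13.6% that fell and 11.7% that rose among all genes and a median of -0.0014. The count was 22 of 42 60S genes and 13 of 29 40S genes, and 69 of the 71 changes were negative. In 20 of the 71 genes every delta-IDR library was below every full-length library, and in 0 above, against 12.3% and 11.4% of all genes. Rps4x, an X-linked 40S protein, had 1140, 1177, 1111 and 1249 CPM in delta-IDR libraries, against 1434, 1425, 1507 and 1356 CPM in full-length libraries. The groups did not overlap, and the log2 change was -0.29 ± 0.04 (adjusted p = 7.7e-07). Rpl28 had 434, 483, 456 and 481 CPM in delta-IDR libraries, against 573, 569, 582 and 538 CPM in full-length libraries. Here too no libraries overlapped, with a log2 change of -0.29 ± 0.04 (adjusted p = 7.51e-06). Rplp0 averaged 2803 ± 118 CPM in delta-IDR and 3274 ± 78.7 CPM in full-length libraries, a log2 change of -0.22. Rps6 fell by 0.22, Rpl5 by 0.25, Rpl3, at the peptidyl transferase centre, by 0.24 and Rplp2 by 0.19 on the log2 scale. Rps3 and Rpl36a also fell by 0.29 each. Rplp1, Rpl11, Rps19, Rps27, Rps27a and Rps27l did not pass the test. On own rows Rps27l, with a log2 change of 0.17, was 1 of the 2 genes with a positive change, beside Rps2 (0.12). The own row of Rps2 held 5.95% of its counts with copies in L929. Its most counted copy there, Rps2-ps10, had 1458, 1539, 1409 and 1751 CPM in delta-IDR libraries, against 1653, 1595, 1783 and 1462 CPM in full-length libraries.

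Summed fibroblast markers were also lower, at 10482 to 11298 CPM in delta-IDR and 12616 to 13476 CPM in full-length libraries, where 2 of 8 tested rose and 4 fell, and the summed genes of the astrocyte list were at 203 to 219 CPM in delta-IDR and 328 to 391 CPM in full-length libraries. Proliferation markers overlapped, at 2433 to 2745 CPM and 2521 to 2644 CPM. The part of these lists in the result was not tested. The fall was uneven between the library pairs described above. With libraries 1 and 3 alone 50 genes fell, with a median of -0.36. With libraries 2 and 4 alone 16 fell and 1 rose, with a median of -0.07. Over all genes these fits gave 2932 and 2396 calls in either direction, against 3568 with all libraries. Leaving out the libraries of 1 number in every group gave counts from 21 (without number 3) to 43 (without number 4), and 23 without number 1. On sums with copies 36 fell and 0 rose, against 13.6% and 11.9% of all genes. The genes outside the minimum Rpl26 (-0.16), Rpl29 (-0.16) and Rps10 (-0.20) fell as well. Rpl17, which did not pass on its own row, fell on the sum by 0.325 (adjusted p = 2.85e-05).

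Against control, delta-IDR cells gave no common direction. Of the 71 genes, 4 rose and 10 fell, with a median log2 change of -0.06, against 32.8% and 31.6% of all genes, whose median was -0.01. Rps27l, a paralog of Rps27 that p53 induces in human cells, had 76.7, 87.0, 75.2 and 99.1 CPM in delta-IDR libraries, against 67.7, 67.3, 65.7 and 67.0 CPM in control libraries. All delta-IDR libraries were higher, with a log2 change of 0.34 ± 0.07 (adjusted p = 0.000234). Rpl8, at the peptidyl transferase centre, rose by 0.14, Rpl4, whose extension lines the exit tunnel, by 0.12 and Rpl19 by 0.08 (-0.03 with total counts). Rpl22 had 90.6, 92.7, 87.5 and 117 CPM in delta-IDR libraries, against 125, 115, 124 and 113 CPM in control libraries. Library 4 of delta-IDR lay among the controls, and the log2 change was -0.30 ± 0.07 (adjusted p = 0.00143). Rps14 (-0.32), Rps3 (-0.24), which sits at the message entry channel, and Rps4x (-0.19) fell too, and of these Rps4x alone did not overlap. With libraries 1 and 3 alone 1 gene rose and 39 fell, with a median of -0.22. With libraries 2 and 4 alone 22 rose and 2 fell, with a median of 0.10. Over all genes these fits gave 7693 and 7871 calls in either direction, against 9099 with all libraries. With total counts 1 rose and 35 fell, while the median of all genes was -0.12. The count was 8 without the libraries numbered 3 and 30 without those numbered 4.

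In delta-CC-LCD cells, 9 of the 71 genes rose and 1 fell against control, with a median log2 change of 0.05 with TMM scaling and -0.09 with total counts (31.9% and 32.7% of all genes, median -0.02). Rps27l averaged 81.8 ± 4.43 CPM in delta-CC-LCD and 66.9 ± 0.864 CPM in control libraries, with no overlap and a log2 change of 0.29 ± 0.07 (adjusted p = 0.00102). Rpl8 had 1001, 1027, 1005 and 1017 CPM in delta-CC-LCD libraries, against 882, 878, 909 and 874 CPM in control libraries, with no overlap and a log2 change of 0.19 ± 0.03. Rps6 (0.14, and -0.0012 with total counts) and Rpl27 (0.20) rose, and Rpl22 was the gene that fell, with 104, 97.9, 104 and 108 CPM in delta-CC-LCD libraries, all below the control libraries. With total counts 0 rose and 13 fell, while the median of all genes was -0.17, and 6 of the 10 called genes changed sign. The count was 5 without the libraries numbered 2 and 16 without those numbered 3. With libraries 1 and 3 alone 4 rose and 2 fell, and with libraries 2 and 4 alone 34 rose. Over all genes these 2 pairs gave 7654 and 8071 calls in either direction, against 9119 with all libraries.

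Against full-length, 9 of the 71 genes fell in delta-CC-LCD cells and 0 rose, 8 of them 60S genes, with a median log2 change of -0.10; of all genes 10.9% fell and 8.41% rose, with a median of -0.01. Rpl12, at the base of the stalk, had 1172, 1092, 1073 and 1163 CPM in delta-CC-LCD libraries, against 1173, 1269, 1366 and 1243 CPM in full-length libraries. The groups met without overlapping, and the log2 change was -0.17 ± 0.04 (adjusted p = 0.00443). Rpl23, Rpl28 and Rpl23a fell by 0.17, 0.15 and 0.15 on the log2 scale. The share that fell was near that of all genes, and the count moved from 0 without the libraries numbered 3 (1 gene fell at an unadjusted p below 0.05) and 1 without those numbered 2 to 21 without those numbered 4. With libraries 1 and 3 alone 23 fell, and with libraries 2 and 4 alone 3 fell and 1 rose. Over all genes these fits gave 1817 and 1736 calls in either direction, against 2726 with all libraries.

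The constructs with deletions were also compared with each other. Of the 71 genes, 13 fell in delta-IDR against delta-CC-LCD cells and 0 rose, with a median log2 change of -0.11, against 10.7% and 11.6% of all genes and a median of 0.00. Rps4x averaged 1169 ± 59.9 CPM in delta-IDR and 1336 ± 19.4 CPM in delta-CC-LCD libraries, a log2 change of -0.19 ± 0.04 (adjusted p = 0.000297). Rps6 had 1282, 1331, 1331 and 1422 CPM in delta-IDR libraries, against 1483, 1562, 1490 and 1546 CPM in delta-CC-LCD libraries. No libraries overlapped for either gene, and the log2 change of Rps6 was -0.18 ± 0.04. Rps7 and Rpl15 fell by 0.17 each, and Rpl5 and Rplp0 by 0.13 each. The count was 5 without the libraries numbered 1 or 2 and 24 without those numbered 4. It was 30 with libraries 1 and 3 alone and 5 with libraries 2 and 4 alone. Over all genes these pairs gave 1895 and 2102 calls in either direction, against 3147 with all libraries. These 3 comparisons share groups with those above, so their counts are not separate evidence.

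**Figure D4:**
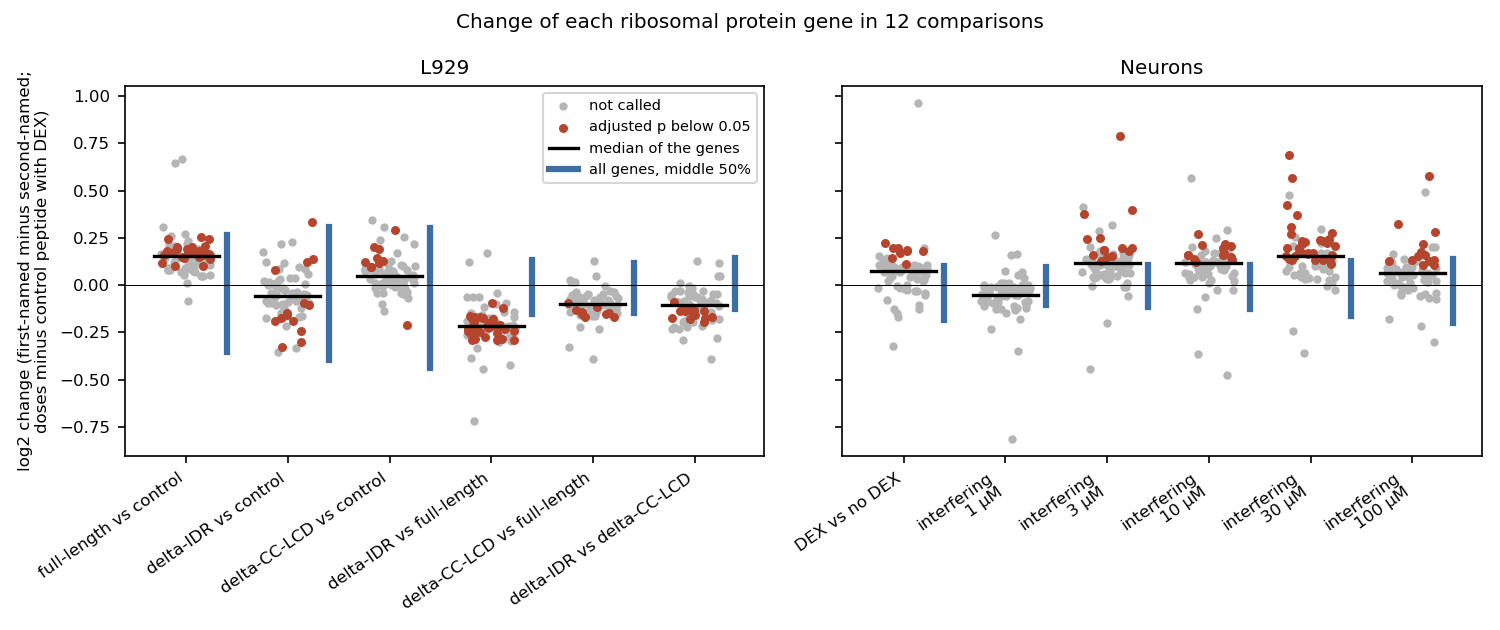
Log2 change of each gene (points; red, adjusted p below 0.05; grey, not called) in 12 comparisons, with the median of the genes (black line) and the middle 50% of all genes tested (blue bar); left L929, right neurons. The genes lay in a narrow band beside the blue bars in every L929 comparison with control, with medians of 0.15, -0.06 and 0.05, and below 0 for delta-IDR against full-length, with a median of -0.21.

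Other genes of ribosome production are given beside the ribosomal proteins, with no test of the difference between lists. Of 39 assembly factors tested, 38 rose in full-length cells, 39 with delta-IDR and 39 with delta-CC-LCD, each against control cells, and 0 fell, with median log2 changes of 0.95, 1.02 and 1.03, where 30.3%, 32.8% and 31.9% of all genes rose. Heatr1, a factor of the small subunit processome, averaged 194, 174 and 198 CPM in full-length, delta-IDR and delta-CC-LCD cells, against 55.9 CPM in control cells, and Bysl, needed to mature the 40S subunit, 90.5, 90.2 and 96.8 CPM, against 26.3 CPM. Of 16 genes of RNA polymerase I and rRNA transcription, 11 rose in each construct, among them Polr1b, a core subunit, with log2 changes of 1.58, 1.45 and 1.58. Of 27 other initiation, elongation and termination factors, 27, 27 and 26 rose. In delta-IDR against full-length cells, where 11.7% of all genes rose and 13.6% fell, 3 assembly factors rose and 4 fell, with a median of -0.01. For mitochondrial ribosomal proteins, which serve a separate ribosome, 10 of 59 rose and 3 fell there, with a median of 0.08.

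Translation factors whose messages carry TOP stretches were a further list. Of 20, 15 rose and 0 fell in full-length against control cells with TMM scaling, with a median log2 change of 0.15. Of all genes 30.3% rose and 28.7% fell there. In that comparison the median of the 71 genes became -0.02 with total counts, and no value with total counts is given for this list. In delta-IDR against full-length cells 9 of the 20 fell and 0 rose, with a median of -0.10. Of all genes 13.6% fell and 11.7% rose in that comparison. Tpt1, a growth-related protein with a strong TOP message, averaged 1123 CPM in delta-IDR and 1477 CPM in full-length cells, a log2 change of -0.40 (adjusted p = 7.59e-09), Eef2, the translocation factor, 1629 and 1915 CPM, and Eef1a1, the elongation factor that brings tRNA, 8095 and 9425 CPM. Among ribosomal proteins with other names, Fau (-0.38), Rps3a1 (-0.25) and Rack1 (-0.19) fell in that comparison, and of the 8 tested 3 fell and 1 rose; Rpl39l is in both lists. Of 23 regulators of TOP messages and mTORC1 tested, 5 fell and 2 rose there, beside the 13.6% and 11.7% of all genes. Those that fell included Sesn1, an mTORC1 inhibitor of the sestrin family, at 67.3 CPM in delta-IDR and 110 CPM in full-length cells. Deptor, an mTOR-binding inhibitor, was at 72.3 and 110 CPM. The 2 that rose are not named here, so these genes do not give a direction for the list. Larp1 had 362, 384 and 385 CPM in delta-IDR, full-length and delta-CC-LCD cells, against 214 CPM in control cells, and rose in each. The 11 listed genes of the MYC network, which sets ribosome production, summed to 755, 673 and 743 CPM in full-length, delta-IDR and delta-CC-LCD cells. In control cells the sum was 629 CPM. Among them Mnt, a repressor, had 7.03, 7.33 and 5.56 CPM in those 3 groups, against 42.2 CPM in control cells. Myc rose in each, to 186, 163 and 144 CPM, against 118 CPM. The other genes of this list are not given singly. Of all genes 30.3%, 32.8% and 31.9% rose and 28.7%, 31.6% and 32.7% fell against control. The part of any of these in the levels of the 71 genes was not tested.

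In neurons with control peptide, DEX was compared with no DEX. Of 70 genes tested, 9 rose and 0 fell, with a median log2 change of 0.08, against 5.44% and 5.35% of all 17837 genes tested and a median of -0.01. All 9 were 60S genes; none of 29 40S genes passed, although their median, 0.07, was close to that of the 60S genes, 0.08, and the difference between subunits was not tested. Rpl3 had 396, 384, 374 and 386 CPM with DEX, against 327, 341, 320 and 334 CPM without. The groups did not overlap, and the log2 change was 0.22 ± 0.04 (adjusted p = 0.000123). Rpl8 had 410, 423, 370 and 408 CPM with DEX, against 361, 359, 327 and 361 CPM without, a log2 change of 0.19 ± 0.05 (adjusted p = 0.00594). Rpl10a (0.19) and Rpl28 (0.19) rose as well, Rpl28 with overlapping groups. Rps27a had 232, 192, 190 and 183 CPM with DEX, against 93.0, 139, 94.8 and 81.5 CPM without, and did not pass although the groups did not overlap (0.96 ± 0.42, adjusted p = 0.151). The stalk proteins Rplp0, Rplp1 and Rplp2, and Rps6, Rps4x, Rpl5, Rpl11, Rps19, Rps27 and Rps27l, did not pass either. Summing the library pairs that resembled each other, which leaves 2 samples a group, 1 gene rose and 0 fell. Calls over all genes dropped as well, from 1925 to 330 in either direction. The count was 4 without the libraries numbered 1, and 3 rose and 1 fell without those numbered 2. Fkbp5 averaged 102 ± 3.14 CPM with DEX and 101 ± 4.48 CPM without, and Sgk1 11.7 ± 1.37 and 12.6 ± 1.38 CPM.

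The interfering peptide was compared with the control peptide at each dose, always with DEX, so the 5 comparisons share 4 control libraries and are given side by side. At 1 µM 0 of 70 genes passed in either direction (edgeR; 0 also with DESeq2), with 10 lower and 0 higher at an unadjusted p below 0.05 and a median log2 change of -0.05, while 1.40% of all genes rose and 0.891% fell. At 3 µM 14 genes rose and 0 fell, with a median of 0.12 (2.88% and 2.37% of all genes). At 10 µM 14 rose and 0 fell, with a median of 0.12 (3.17% and 2.21% of all genes). At 30 µM 32 rose and 0 fell, with a median of 0.15 (8.62% and 7.26% of all genes), 17 of 41 60S genes and 15 of 29 40S genes. At 100 µM 13 rose and 0 fell, with a median of 0.06 (11.9% and 11.5% of all genes). Medians of all genes lay between -0.01 and 0.01 at the 5 doses. With the same pairs summed, the numbers that rose were 1, 0, 9 and 4 at 3, 10, 30 and 100 µM, with 0 lower (22 higher at an unadjusted p below 0.05 at 10 µM). Over all genes those fits gave 101, 108, 700 and 1788 calls in either direction. With libraries not summed there were 937, 960, 2833 and 4166.

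Rps4x illustrates the series. It had 576, 545, 582 and 586 CPM at 1 µM, 621, 608, 629 and 621 CPM at 3 µM, 646, 611, 622 and 649 CPM at 10 µM, 688, 651, 674 and 627 CPM at 30 µM and 660, 618, 633 and 612 CPM at 100 µM, against 563, 595, 553 and 598 CPM with control peptide. Every library from 3 µM up was above the control peptide libraries, and the log2 changes were -0.01, 0.10, 0.13, 0.19 and 0.13, those at 10, 30 and 100 µM past the test (adjusted p = 0.032, 0.000301 and 0.0114). Rpl41 had 408, 416, 414 and 414 CPM at 30 µM and 423, 396, 403 and 398 CPM at 100 µM, against 298, 331, 325 and 380 CPM with control peptide. All libraries at those doses were above the controls, with a log2 change of 0.28 ± 0.06 at 100 µM (adjusted p = 0.0012). Rpl27a averaged 293 ± 10.4 CPM at 3 µM, 286 ± 15.1 CPM at 10 µM, 291 ± 11.1 CPM at 30 µM and 287 ± 15.1 CPM at 100 µM, against 246 ± 19.2 CPM with control peptide, and rose at each of these doses. Rpl23a rose at 100 µM, by 0.32 ± 0.08 (adjusted p = 0.00667), with no overlap. Other 60S genes with the largest changes were Rpl36 at 3 µM, with 99.9 ± 16.7 CPM, against 76.0 ± 8.65 CPM with control peptide, and at 10 µM Rpl38, which affects the translation of homeobox messages in mouse embryos, with 73.1 ± 3.99 CPM, against 62.8 ± 4.61 CPM, and Rpl37, with 163 ± 8.44 CPM, against 141 ± 10.3 CPM. Rpl11, which with Rpl5 can bind Mdm2, rose at 3, 10 and 30 µM (0.15, 0.16 and 0.23), and Rpl5 at 10, 30 and 100 µM (0.13, 0.17 and 0.13). Rplp0 rose at 3 and 30 µM, Rps6 at 30 µM (0.11), and Rplp1, Rplp2, Rpl3, Rps19, Rps27a and Rps27l at none of the doses.

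The steepest changes were in genes with copies. Rps27 had 89.2, 101, 59.1 and 93.5 CPM at 3 µM, against 56.1, 70.9, 48.4 and 23.9 CPM with control peptide, a log2 change of 0.79 ± 0.23 (adjusted p = 0.0494) with overlapping groups. On sums with Rps27rt and its other copies it had 108, 135, 107 and 138 CPM at 3 µM, against 88.2, 95.9, 83.6 and 112 CPM, and the change was 0.36 (adjusted p = 0.0169). Rps27 rose at 30 µM by 0.69 on its own row and did not pass there on the sum (0.24, adjusted p = 0.0711). Rps2 rose by 0.38 at 3 µM and 0.37 at 30 µM on its own row, and its sums, 0.08 and 0.11, did not pass. Rpl34 rose by 0.56 at 30 µM and 0.58 at 100 µM on an own row of 8.61 ± 1.49 and 8.70 ± 1.42 CPM, against 5.82 ± 0.605 CPM with control peptide. Its sum, 153, 150, 159 and 151 CPM at 30 µM against 142, 131, 116 and 134 CPM, rose by 0.23 and at 100 µM did not pass (0.14). Rps18 (0.42 at 30 µM) did not pass on the sum (0.16). Conversely Rpl17 rose on sums at 3, 10, 30 and 100 µM, by 0.15, 0.15, 0.16 and 0.16, having passed at none on its own row. Over all 70 genes the counts on sums were 16, 19, 35 and 13 at 3, 10, 30 and 100 µM, all higher. In those fits 2.89%, 3.26%, 8.72% and 12% of all genes rose.

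Across the 20 interfering peptide libraries, the slope on log10 dose passed in 18 genes, all upward (14 60S and 4 40S genes), with a median of 0.05 per 10-fold dose; of 17349 genes tested, 9.46% had an upward and 9.91% a downward slope. Rpl41 rose by 0.16 ± 0.03 per 10-fold dose (adjusted p = 3.3e-05), Rpl23a by 0.15 ± 0.03 (adjusted p = 0.000215), Rpl30 by 0.15 and Rpl34, on its low own row, by 0.25. The slope holds the low levels at 1 µM and the lower medians at 100 µM than at 30 µM, so it does not describe a steady climb. Rpl23a had 288, 279, 317 and 258 CPM at 1 µM, 296, 344, 333 and 267 CPM at 3 µM, 312, 337, 342 and 309 CPM at 10 µM, 350, 326, 328 and 346 CPM at 30 µM and 336, 359, 341 and 389 CPM at 100 µM, against 296, 258, 267 and 320 CPM with control peptide.

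Counts at the doses moved with single libraries. They were 18, 5, 4 and 4 at 3 µM and 6, 8, 0 and 5 at 10 µM without the libraries numbered 1, 2, 3 and 4 in turn, the 0 with 16 higher at an unadjusted p below 0.05; 14 at 30 µM without those numbered 3; 5 and 7 at 100 µM without those numbered 1 and 3; and 7 for the slope without those numbered 1. With total counts the medians were 0.09, 0.08, 0.10 and 0.00 at 3, 10, 30 and 100 µM and 7, 2, 16 and 4 genes rose. Within library pairs 6 rose at 30 µM with libraries 2 and 4 alone, against 35 that rose and 1 that fell with libraries 1 and 3. At 100 µM 4 rose and 2 fell with libraries 2 and 4, against 24 that rose with libraries 1 and 3. With libraries 2 and 4 alone 13 fell at 1 µM and 4 rose at 10 µM. Over all genes, libraries 2 and 4 alone gave 1766, 1700, 2022 and 4281 calls in either direction at 1, 10, 30 and 100 µM. Libraries 1 and 3 alone gave 2724 and 2765 at 30 and 100 µM. All libraries gave 409, 960, 2833 and 4166 at 1, 10, 30 and 100 µM. Marker lists of several cell types are given beside these counts. Of all genes 8.62% rose and 7.26% fell at 30 µM, and 11.9% rose and 11.5% fell at 100 µM. Of 8 proliferation markers, 4 rose at 30 µM and 4 rose and 1 fell at 100 µM, and their summed level was 1436 to 1489 CPM at 1 µM, 1431 to 1533 CPM at 30 µM and 1362 to 1519 CPM at 100 µM, against 1278 to 1404 CPM with control peptide. Summed microglia markers, of which none of 8 passed, lay at 27.2 to 30.7 CPM at 30 µM and 27.4 to 31.0 CPM at 100 µM, against 24.2 to 26.1 CPM. Endothelial and mural markers, of which 1 of 7 rose at 30 µM, lay at 157 to 164 CPM there, against 136 to 156 CPM. Of 10 neuron markers 1 rose at 30 µM and 4 at 100 µM, with summed levels of 3541 to 3710 CPM and 3626 to 3837 CPM, against 3251 to 3558 CPM. Summed proliferation markers at 1 and 30 µM, microglia markers at 30 and 100 µM, endothelial and mural markers at 30 µM and neuron markers at 100 µM did not overlap those with control peptide. Of all single genes, 4.56%, 10.2% and 11.8% lay above the control peptide libraries without overlap at 1, 30 and 100 µM. Summed astrocyte, oligodendrocyte and fibroblast markers overlapped the controls at 30 and 100 µM. The part of these lists in the result was not tested.

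**Figure D5:**
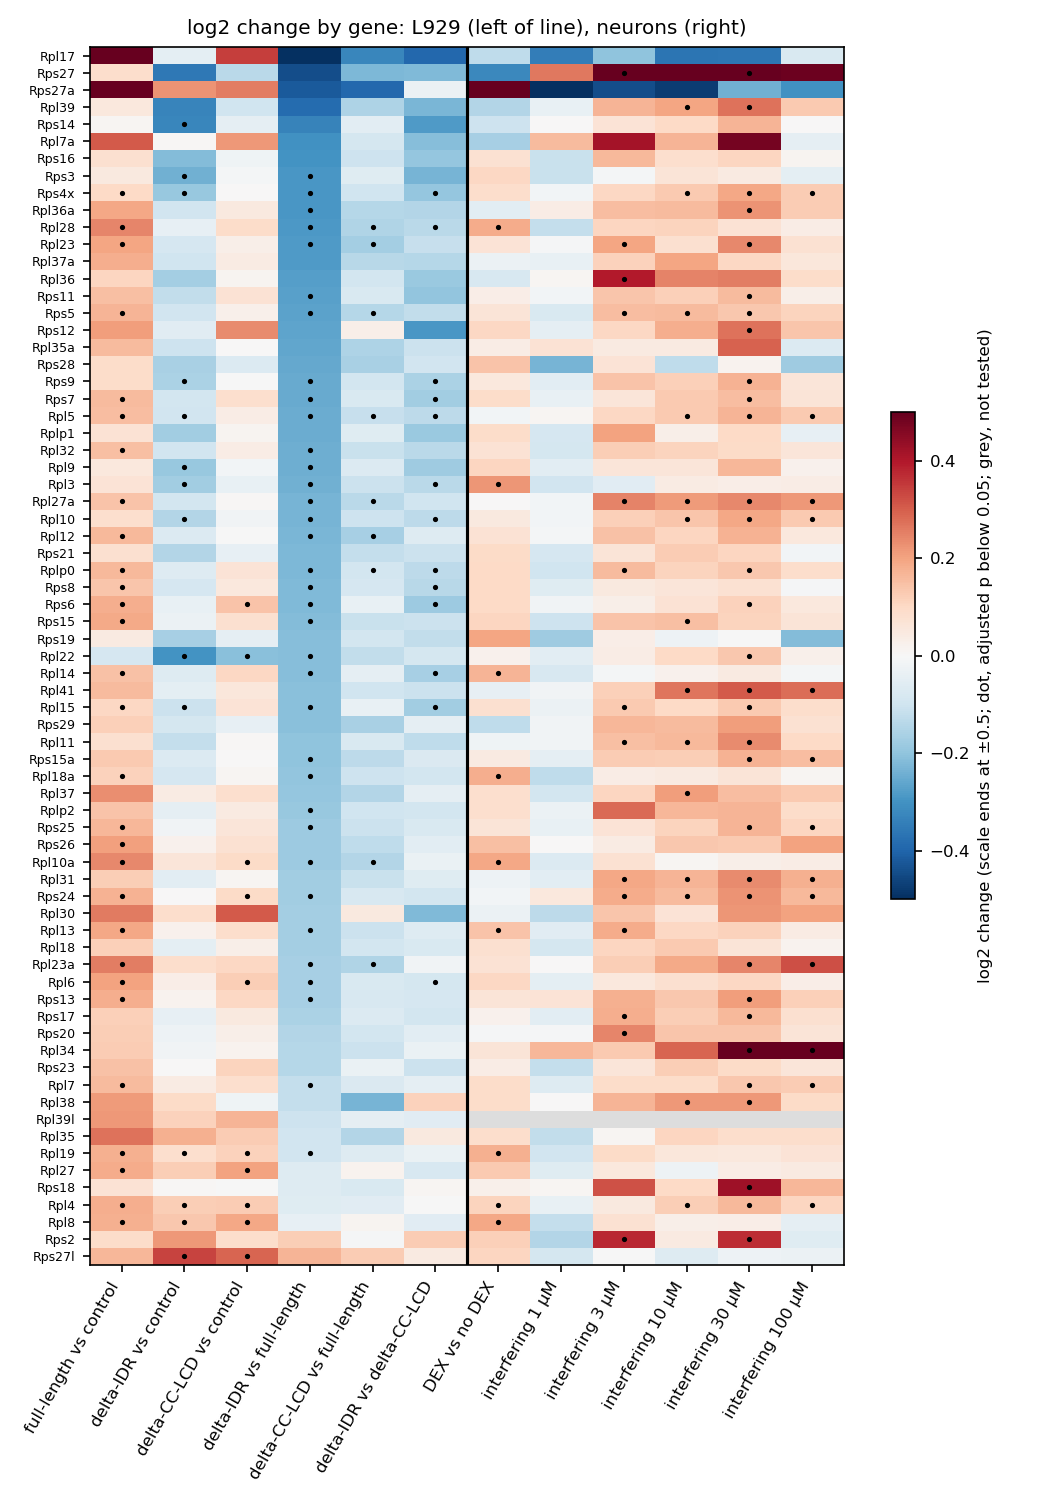
Log2 change of each of the 71 genes (rows, ordered by delta-IDR against full-length) in 12 comparisons (columns; L929 left of the line, neurons right), colours ending at ±0.5, dots for adjusted p below 0.05 and grey where not tested. Most rows were blue for delta-IDR against full-length, where 35 genes fell, and red at 3 to 30 µM interfering peptide, where 14, 14 and 32 genes rose.

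The neighbouring lists in neurons are read against all genes, of which 8.62% rose and 7.26% fell at 30 µM and 11.9% and 11.5% at 100 µM; no difference between lists was tested. Of 20 translation factors with TOP messages, 14 rose at 30 µM and 12 at 100 µM with 0 lower, with median log2 changes of 0.17 and 0.13, beside 0.15 and 0.06 for the ribosomal proteins, among them Eef1a1 at 7335 and 7071 CPM, against 6476 CPM with control peptide, and Naca, of the nascent chain complex, at 392 and 380 CPM, against 332 CPM. Rps3a1, a 40S protein outside the name rule, had 669 CPM at 30 µM and 646 CPM at 100 µM, against 525 CPM with control peptide, with log2 changes of 0.35 and 0.30. Of 39 assembly factors 3 rose and 2 fell at 30 µM and 6 rose and 2 fell at 100 µM, with medians of 0.01 and -0.02. Of 59 mitochondrial ribosomal proteins 1 rose and 6 fell at 30 µM and 0 rose and 10 fell at 100 µM, among them Mrps2 at 30.2 and 27.1 CPM, against 38.1 CPM with control peptide. With DEX against no DEX, where 5.44% of all genes rose, 7 assembly factors rose, Nop56, of the box C/D particle that methylates rRNA, at 188 CPM with DEX and 154 CPM without, and 6 of 25 regulators rose, among them Larp1 at 227 and 192 CPM. Larp1 fell at 30 and 100 µM, to 204 CPM at either dose, against 227 CPM with control peptide.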

How the data were processed

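Polyadenylated RNA of 44 libraries was sequenced, and reads were aligned with HISAT2 2.2.1 to mm10, per the submitters' processing notes. Not given in the sources used here were the counting tool, its annotation, its strand setting and how it treated reads that fit several places. The authors deposited 2 tables of raw read counts per gene, one for L929 and one for neurons, each with 54532 genes, which were used as deposited; 0 columns belonged to other samples. Library totals are given with the results; more reads mean a smaller counting error, and SDs cover libraries only.

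Counts were tested in R 4.3.3 with edgeR 4.0.16 (quasi-likelihood test, robust, TMM scaling, filterByExpr, adjusted p below 0.05 by Benjamini-Hochberg over all genes tested), 1 fit per table over all of its groups, with a separate fit of log10 dose over the 20 interfering peptide libraries. CPM used TMM-scaled library sizes, except for the rule and the shares, which used total counts, and RPKM used the deposited gene lengths. The number that passed a filter on low counts was 71 of 71 genes in L929 and 70 of 71 in neurons. Copies were genes elsewhere that share a stretch of 75 bases with a gene's coding transcripts in GENCODE M21, and start sequences came from RefSeq (GRCm38.p6). Scripts were tested on simulated data. Alternatives were DESeq2 1.42.0, other scalings and filters, fits of only the groups compared, a replicate block, left-out libraries, summed library pairs and, added after seeing the data, single library pairs and sums with copies.

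The genes and lists were chosen with earlier results of these data known. Genes named are the 4 largest rises and falls called per comparison, the 5 highest and lowest per length in each control group, and Rplp0, Rplp1, Rplp2, Rps27a, Rps27, Rps27l, Rps4x, Rps6, Rpl3, Rpl5, Rpl11 and Rps19. Others were named for their copies or, outside the set, for their role, after their values were seen.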

Additional observations from a re-analysis of the deposited data

Results flagged for a closer look

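In 6 of 160 groups of 4 libraries, 1 library lay far from the other 3 when its gap to the nearest was divided by the group's whole range; chance gives such a library in about 1 in 20 groups. The share of counts in the 71 genes was 1.81% in 1 library at 1 µM interfering peptide and 1.91% to 1.93% in the others, a gap of 0.8396. At 100 µM it was 2.14% in 1 library and 1.94% to 1.97% in the others, a gap of 0.8364. In full-length cells Rps27 had 193 CPM in 1 library and 238 to 245 CPM in the others (0.8726), and Rpl23 had 632 CPM and 705 to 713 CPM (0.9046). Rpl8 had 327 CPM in 1 library with control peptide and no DEX and 359 to 361 CPM in the others (0.9362). Rpl17 had 231 CPM in 1 library with control peptide and DEX and 74.0 to 88.4 CPM in the others (0.908); on sums with copies that library had 371 CPM and the others 319 to 356 CPM.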

How the results depend on the processing

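Counts of genes called moved by over 1.5 times as follows. With total counts as library sizes they were 2 for full-length against control, 36 and 13 for delta-IDR and delta-CC-LCD against control, 3 for delta-CC-LCD against full-length, 5 for delta-IDR against delta-CC-LCD, 7, 2, 16 and 4 at 3, 10, 30 and 100 µM, and 7 for the slope on dose. Of the called genes, 13 of 29, 1 of 14 and 6 of 10 changed sign there for full-length, delta-IDR and delta-CC-LCD against control, and 0 did in the other comparisons. Of the calls named in the text these were Rpl5 (-0.0167), Rplp0 (-0.0085) and Rps4x (-0.0699) for full-length, Rpl19 (-0.0273) for delta-IDR and Rps6 (-0.0012) for delta-CC-LCD. With libraries 1 and 3, and 2 and 4, summed, 8 were called for delta-IDR against control, 4 for delta-IDR against delta-CC-LCD, 0 for delta-CC-LCD against full-length (6 lower unadjusted), 1 for DEX, 1, 0, 9 and 4 at 3, 10, 30 and 100 µM (22 higher unadjusted at 10 µM) and 5 for the slope. Libraries 1 and 3 alone gave 6, 23, 40 and 30 for delta-CC-LCD against control and full-length and delta-IDR against control and delta-CC-LCD, 2 at 1 µM and 24 at 100 µM. Libraries 2 and 4 alone gave 34, 4, 24 and 5 in those 4, 17 for delta-IDR against full-length, 13, 4, 6 and 6 at 1, 10, 30 and 100 µM, and 6 for the slope. With no filter 19 were called for delta-CC-LCD against control, and fits of the 2 groups alone gave 18 there and 1, 3 and 6 at 1, 3 and 10 µM. Leaving out the libraries of 1 number gave 18 to 36 for full-length, 8 to 30 for delta-IDR and 5 to 16 for delta-CC-LCD against control, 21 to 43 and 0 to 21 for delta-IDR and delta-CC-LCD against full-length, 5 to 24 for delta-IDR against delta-CC-LCD, 4 to 7 for DEX, 0 to 0, 4 to 18, 0 to 8, 14 to 29 and 5 to 13 over the doses, and 7 to 20 for the slope. Calls over all genes also moved with the setting. At 1 µM they went from 409 to 1766 with libraries 2 and 4 alone. For DEX they went from 1925 to 330 with library pairs summed. The causes were not tested.

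DESeq2 called 33 and 39 for full-length against control and delta-IDR against full-length, and 36 at 30 µM. Replicate numbers did not pair the libraries: same-numbered libraries had a mean correlation of deviations of 0.013 in L929 and -0.019 in neurons, and 3 of 16 and 8 of 28 libraries were closest to their own number. The replicate block gave 29 for full-length against control, 11 and 9 for delta-IDR and delta-CC-LCD against control, 30 and 6 for delta-IDR and delta-CC-LCD against full-length, 11 for delta-IDR against delta-CC-LCD, 9 for DEX, 0, 14, 14, 33 and 13 over the doses and 18 for the slope. Of single-gene results, 1007 kept their side of the threshold, 24 became called, 206 lost the call and 5, those named above, reversed.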
